A study of Mus musculus with 10 samples.

Results

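The immediate early genes Fos, Fosb, Jun, Junb, Egr1, Ier2, Atf3, Dusp1 and Nr4a1, together with Rhob, were followed in spleen RNA from 10 mice. These 10 genes were taken by symbol from 18193 named genes on the array and had 11 of 45037 probe sets other than controls, with 2 for Jun and 1 for each other gene. Rhob was chosen by a measured value, since it was lower in old than in young non-arthritic mice. Every member's value in that comparison is therefore given as a description, with no test.

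All 10 mice were female, of the BALB/c strain, and had received cartilage proteoglycan (PG) with adjuvant by intraperitoneal injection, which induces arthritis in this strain. Unimmunized mice were not analysed here, so every comparison is among immunized mice. Each spleen was read on 1 Affymetrix mouse array, and the values are log2 signals, on which a difference of 1 is a doubling. The labels give 2 old arthritic mice, both aged 9 months, and 2 old non-arthritic mice, aged 7 months (replicate 1) and 5 months (replicate 2). They also give 2 young arthritic mice, aged 5 and 4 months, and 4 young non-arthritic mice, aged 3, 3, 2 and 1 months. Within each age group the arthritic mice were all older than the non-arthritic mice, so there arthritis and age cannot be told apart. A model with arthritis status and age in months, with age taken as linear, was used beside the model of 4 group means. The labels do not say whether age was taken at first injection or at sacrifice. For its groups of serum antibody levels, the study's text counts age at the first injection. In whole spleen, fewer cells of a type and less RNA per cell cannot be told apart.

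Immediate early genes are transcribed within minutes of a stimulus by factors already present in the cell, without new protein synthesis. Growth factors, antigen receptor signals, cytokines and stress, handling of tissue included, induce them through MAP kinases that act on serum response factor, its partners and CREB. Their products include the Fos and Jun subunits of the AP-1 transcription factor and inhibitors that switch the same pathways off. Rhob encodes a small GTPase that is found on endosomes and is itself quickly induced by growth factors and stress.

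The sequence just upstream of the start of transcription was read for 8 of the 10 members from RefSeq (GRCm38.p6). Egr1 and Ier2 were not matched. The sequences of Fos, Dusp1 and Nr4a1 are shown because they hold the most copies of TGACG or its complement among the 8. Those of Atf3 and Rhob are shown because the comparisons turn on them. Each is the 250 bases before the start, 5′ to 3′ on the gene's own strand. Capitals mark TGACG, the core of the cyclic AMP response element bound by CREB and ATF proteins, and CCAAT, the box bound by NF-Y, each on either strand. The stretches are chr12:85473640-85473889 (plus strand) for Fos, chr1:191183334-191183583 (minus strand) for Atf3, chr17:26508473-26508722 (minus strand) for Dusp1, chr15:101266596-101266845 (plus strand) for Nr4a1 and chr12:8500010-8500259 (minus strand) for Rhob.
Fos: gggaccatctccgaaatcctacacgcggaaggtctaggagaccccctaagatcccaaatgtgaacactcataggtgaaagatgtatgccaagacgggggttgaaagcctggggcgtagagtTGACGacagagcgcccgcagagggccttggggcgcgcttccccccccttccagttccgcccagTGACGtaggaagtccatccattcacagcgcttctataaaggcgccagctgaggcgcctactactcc
Atf3: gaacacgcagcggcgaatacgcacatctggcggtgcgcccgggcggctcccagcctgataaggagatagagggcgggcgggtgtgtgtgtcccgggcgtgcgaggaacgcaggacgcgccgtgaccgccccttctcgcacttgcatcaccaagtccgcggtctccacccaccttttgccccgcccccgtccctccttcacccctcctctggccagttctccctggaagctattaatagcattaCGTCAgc
Dusp1: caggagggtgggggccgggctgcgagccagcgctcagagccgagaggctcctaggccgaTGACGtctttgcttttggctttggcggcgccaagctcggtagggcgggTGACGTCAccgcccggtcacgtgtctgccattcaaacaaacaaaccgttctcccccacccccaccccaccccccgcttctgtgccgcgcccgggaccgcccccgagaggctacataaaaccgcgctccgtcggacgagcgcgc
Nr4a1: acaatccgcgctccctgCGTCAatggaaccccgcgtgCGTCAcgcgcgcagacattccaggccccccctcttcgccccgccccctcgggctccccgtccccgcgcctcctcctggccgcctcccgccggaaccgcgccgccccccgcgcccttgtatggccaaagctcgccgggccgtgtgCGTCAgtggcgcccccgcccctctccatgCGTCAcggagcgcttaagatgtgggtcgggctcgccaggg
Rhob: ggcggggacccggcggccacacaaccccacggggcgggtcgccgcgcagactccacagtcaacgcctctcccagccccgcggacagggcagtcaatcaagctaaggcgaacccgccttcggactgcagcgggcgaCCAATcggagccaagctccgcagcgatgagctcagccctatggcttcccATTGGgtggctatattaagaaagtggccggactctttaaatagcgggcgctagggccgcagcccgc
TGACG or its complement CGTCA was found in 6 of the 8 member sequences (Fos, Fosb, Junb, Atf3, Dusp1 and Nr4a1) and in 17.8% of 32851 starts in the table. Nr4a1 held 4 matches, the nearest beginning 40 bases before the start. In Dusp1, a pair of overlapping matches formed the palindrome TGACGTCA, which 1.55% of all starts hold. Rhob held no TGACG but 2 matches to CCAAT or ATTGG, which begin 115 and 66 bases before the start. CCAAT or ATTGG was also found in Jun and Junb, giving 3 of 8 members, against 33.8% of all starts. TATAAA was found in Fos, 33 bases before the start, and in 12.4% of all starts on either strand. The AP-1 site TGAGTCA and the CArG box of serum response factor were in none of the 8 windows, and in 4.46% and 1.47% of all starts. These are matches of letters, not measured binding.

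Array medians lay between 6.88 and 6.96, and the arrays correlated at 0.981 to 0.997 over all probe sets other than controls. Defining B cell genes (6 of 7 tested, mean of the list 11.46 to 11.73) and T cell genes (7 of 8, 10.15 to 10.59) were high on every array of this labelled spleen RNA. Old arthritic replicate 2 stood apart in its plasma cell list (10.69, against 9.56 to 10.08 on the other arrays) and in its mesothelial list (7.12, against 7.60 to 8.43). It also stood apart in some single genes, such as Creb1 (10.30, against 10.94 to 11.21) and Rps6ka3 (9.74, against 10.19 to 10.64). Whether its RNA or array differed in quality was not tested. Tests covered the 23805 probe sets with a signal over the median of the array on 2 or more arrays. Of the members, 9 genes passed, with 10 probe sets.

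**Figure D1:**
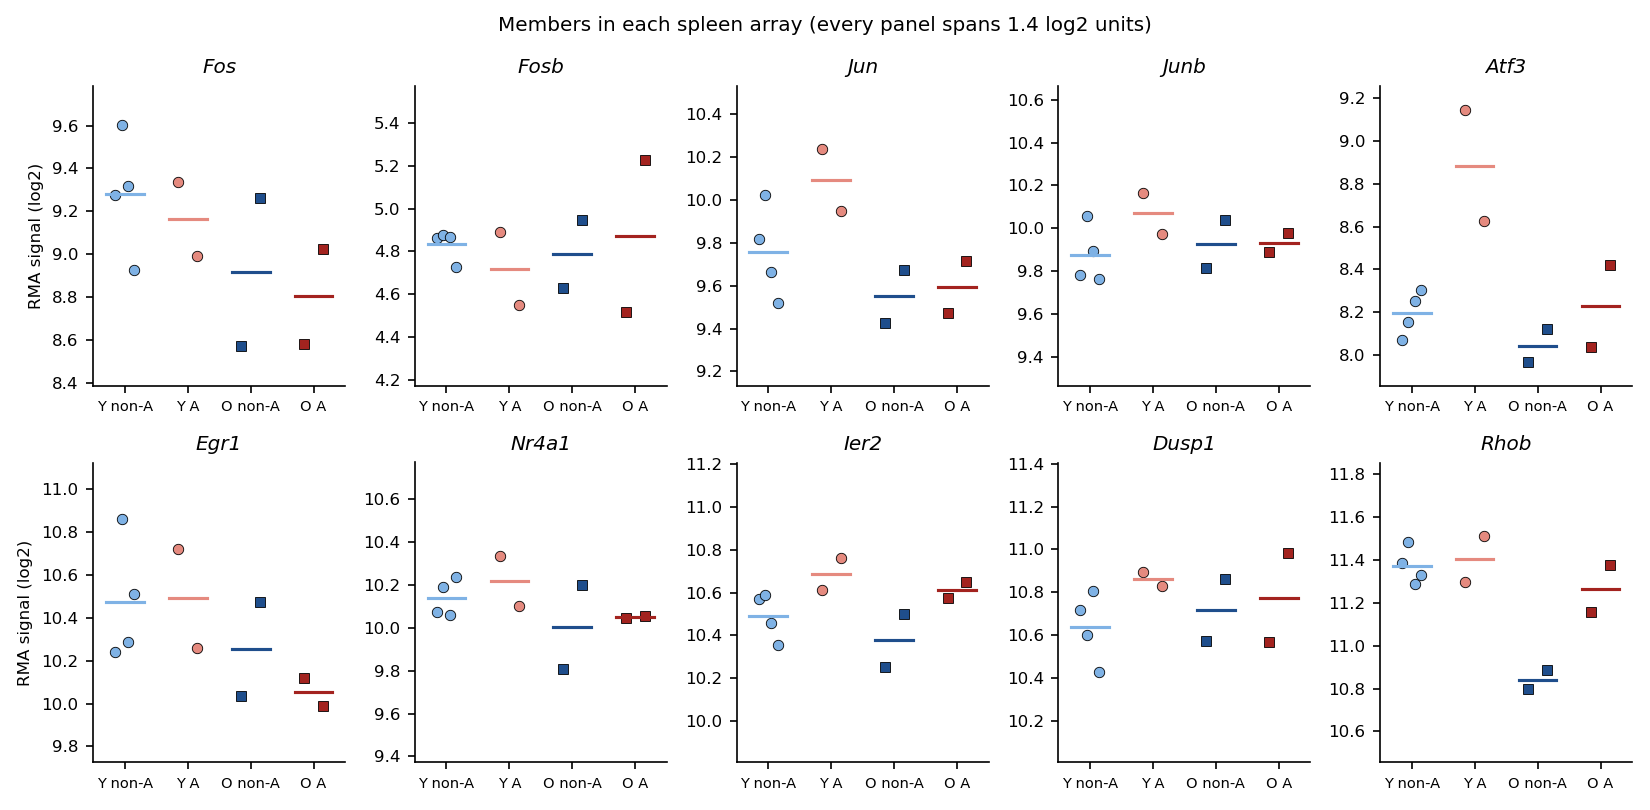
Log2 RMA signal of each member (y axis, every panel spanning the same width on the log2 scale) on each array, by group (x axis; Y young, O old, A arthritic, non-A non-arthritic). Points are mice, 4 in the young non-arthritic group and 2 in each other group, bars are group means, and Jun is shown by its brighter probe set. Both young arthritic arrays lie above all others for Atf3, and both old non-arthritic arrays lie below all others for Rhob.

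Fos encodes the classical partner of Jun proteins in AP-1. It was read at 8.58 and 9.02 in old arthritic mice, 8.57 and 9.26 in old non-arthritic mice, 9.34 and 8.99 in young arthritic mice, and 9.27, 9.60, 9.32 and 8.93 in young non-arthritic mice. Its groups overlapped throughout, and the old non-arthritic mice differed from each other by more than any pair of group means did. Its residual standard deviation within groups, 0.32, stood at percentile 96.3 of all named genes tested.

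Jun encodes the AP-1 subunit that binds DNA as a dimer with Fos or with itself. Its brighter probe set was read at 9.47 and 9.72 in old arthritic mice, 9.43 and 9.68 in old non-arthritic mice, 10.24 and 9.95 in young arthritic mice, and 9.82, 10.02, 9.66 and 9.52 in young non-arthritic mice. Both young arthritic arrays lay above all 4 old arrays. The other Jun probe set was dimmer and also placed young arthritic mice (8.98 and 8.70) above old arthritic mice (8.45 and 8.49), but not above old non-arthritic mice (8.59 and 8.71).

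Junb, a Jun relative that tempers Jun activity in AP-1, ranged only from 9.76 to 10.17, with every group overlapping every other. Fosb, a further Fos family member, lay below the median on all 10 arrays (4.52 to 5.22), so its level above background is not shown and it was left out of the tests. In a fit of all probe sets without that filter, the smallest adjusted p for Fosb in limma was 0.733.

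Atf3 encodes a stress-induced member of the ATF/CREB family that pairs with Jun proteins. It was read at 8.04 and 8.42 in old arthritic mice, 7.97 and 8.12 in old non-arthritic mice, 9.14 and 8.62 in young arthritic mice, and 8.07, 8.15, 8.25 and 8.30 in young non-arthritic mice. The young arthritic arrays were the 2 highest of the 10, and the remaining groups overlapped.

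Egr1 encodes a zinc finger transcription factor induced through serum response factor. It was read at 10.12 and 9.99 in old arthritic mice, 10.04 and 10.48 in old non-arthritic mice, 10.72 and 10.26 in young arthritic mice, and 10.24, 10.86, 10.29 and 10.51 in young non-arthritic mice. Both old arthritic arrays lay below all 6 young arrays, while old non-arthritic arrays overlapped the young ones.

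Nr4a1, an orphan nuclear receptor induced by antigen receptor signals in lymphocytes, ranged from 9.81 to 10.34. Old arthritic mice were read at 10.05 and 10.05, below the 10.34 and 10.10 of young arthritic mice. The old non-arthritic arrays (9.81 and 10.20) lay on both sides of them, and the lowest young non-arthritic array stood at 10.06.

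Ier2, an early response gene whose nuclear product takes part in transcription, was read at 10.58 and 10.65 in old arthritic mice, 10.25 and 10.50 in old non-arthritic mice, 10.61 and 10.76 in young arthritic mice, and 10.57, 10.59, 10.46 and 10.35 in young non-arthritic mice. In each age group both arthritic arrays lay above all non-arthritic arrays. Dusp1 encodes a phosphatase that switches off MAP kinases. It ranged from 10.43 to 10.98, and its young arthritic arrays (10.90 and 10.83) lay above the young non-arthritic arrays (10.43 to 10.81).

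In old against young arthritic mice all 8 immediate early genes tested had lower means in old mice, but none passed an adjusted p of 0.05 in limma. The background there was also 0% of tested probe sets, with 3019 (12.7%) at an unadjusted p under 0.05, as were Jun and Atf3 among the 8 genes. The largest difference was that of Atf3, -0.66 (standard error 0.18, adjusted p = 0.286), followed by Jun with -0.50 (0.18, adjusted p = 0.327) and -0.37 (0.13, adjusted p = 0.322) for its dimmer probe set. Egr1 differed by -0.44 (standard error 0.24, adjusted p = 0.462) and Fos by -0.36 (0.27, adjusted p = 0.604). The median of the 8 genes was -0.26, beside -0.06 for all named genes. Jun, Egr1, Atf3 and Nr4a1, 4 of the 9 members tested, lay wholly lower in old arthritic mice, where 28.0% of tested probe sets did. With the arrays quantile normalized once more, 7 of 8 were lower and Ier2 stood at 0.02. Single arrays moved these sizes, and leaving out 1 of a group of 2 left that group with 1 mouse. Without old arthritic replicate 1, the old arthritic group was replicate 2 alone, which stood apart in its plasma cell and mesothelial lists. Without young arthritic replicate 1 the difference was -0.40 for Atf3, -0.20 for Egr1 and -0.19 for Fos, and without old arthritic replicate 1 it was -0.14 for Fos. Without young arthritic replicate 2 it was -0.91 for Atf3 and -0.67 for Egr1, and without old arthritic replicate 2 it was -0.58 for Fos.

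Markers of several cell types were lower in old arthritic mice as well. All 10 monocyte and macrophage markers tested of 11 had lower means, with a median of -0.29 and 7 at an unadjusted p under 0.05, and the mean of the list was 11.31 to 11.35 in old against 11.57 to 11.65 in young arthritic mice. The same held for all 6 mesothelial markers (median -0.75, 7.12 to 7.60 against 7.98 to 8.12) and all 7 T cell markers tested (median -0.24, 10.18 against 10.45 to 10.48). It held too for the 8 fibroblast and stroma markers tested of 10 (median -0.42) and the 5 megakaryocyte and platelet markers tested (median -0.44). Other lists went the other way. All 7 erythroid markers tested of 10 had higher means in old arthritic mice, with a median of 0.26. The B cell (0.04), plasma cell (0.09) and pancreatic acinar (0.03) medians were also above 0. None of these markers passed in limma, and their part in the lower immediate early gene means was not tested.

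In arthritic against non-arthritic old mice none of the 8 genes passed in limma, where 0.0714% of tested probe sets did. An unadjusted p under 0.05 was found for 4433 probe sets (18.6%) and for none of the 8 genes. Ier2 stood highest, at 0.24 (standard error 0.12, adjusted p = 0.321). The other genes ran from -0.20 for Egr1 to 0.18 for Atf3, and the median of the 8 was 0.04, with 6 of 8 higher, beside 0.07 for all named genes. This direction rested on single arrays. The median was -0.10 without old non-arthritic replicate 1 (2 of 8 higher), 0.22 without old non-arthritic replicate 2 (8 of 8) and -0.06 without old arthritic replicate 2 (2 of 8). It was -0.03 with the arrays quantile normalized once more (2 of 8). Of the 8 genes, Ier2 alone lay wholly above, where 35.3% of tested probe sets did. Rhob did too, but its low value in these old non-arthritic arrays chose it, so that is a description only.

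In young mice 0 of the 8 genes passed, where 0.311% of tested probe sets did and 4336 (18.2%) had an unadjusted p under 0.05, Atf3 among them. Atf3 stood 0.69 higher in arthritic mice (1.61-fold, standard error 0.16, 95% interval 0.33 to 1.05, adjusted p = 0.107 in limma). Without young arthritic replicate 1 the difference was 0.43 (adjusted p = 0.383), and without young arthritic replicate 2 it was 0.95. Jun followed with 0.34 (adjusted p = 0.291), against 0.11 in its dimmer probe set. Ier2, Atf3 and Dusp1, 3 of the 9 members tested, lay wholly above, where 25.6% of tested probe sets did.

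The difference that arthritis made in old mice was also compared with that in young mice. No member passed, the background was 0% with 737 (3.10%) at an unadjusted p under 0.05, and the adjusted p of each immediate early gene was at least 0.9997. The largest difference was that of Atf3, at -0.50 (standard error 0.24), the gap between arthritic and other mice being smaller in the old.

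At equal age, 2.26% of tested probe sets passed, 431 higher and 107 lower in arthritic mice (118 and 59 when the arrays were quantile normalized once more), and no immediate early gene did. All 8 had positive differences, as did 68.5% of tested probe sets, with a median of 0.16 beside 0.11 for all named genes. Fos, at 0.07 (standard error 0.22), was lower in arthritic mice within both age groups (-0.11 in old and -0.12 in young mice). Egr1, at 0.10, differed by -0.20 in old and 0.02 in young mice. Atf3 was nearest the threshold, at 0.70 (1.62-fold, standard error 0.17, 95% interval 0.33 to 1.06, adjusted p = 0.0570 in limma). It stood at 0.74 without old arthritic replicate 1, which left replicate 2 as the only old arthritic mouse, and at 0.45 without young arthritic replicate 1. Ier2 differed by 0.26 (standard error 0.09, adjusted p = 0.140), and Atf3 and Ier2 were the 2 genes with an unadjusted p under 0.05, as were 5442 (22.9%) of all tested probe sets. Jun differed by 0.36 (adjusted p = 0.224) but by 0.09 in its dimmer probe set. Quantile normalizing the arrays once more moved the median of all named genes from 0.11 to 0.01, and then 6 of 8 differences were positive, with Fos and Egr1 at -0.03 and Atf3 at 0.63.

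Along age in months at equal arthritis status, 0.0042% of tested probe sets passed, and 2376 (9.98%) had an unadjusted p under 0.05. All 8 genes had slopes at or below 0, with a median of -0.05 per month beside -0.01 for all named genes. The steepest was that of Atf3, at -0.09 per month (standard error 0.03, adjusted p = 0.468), which was the 1 immediate early gene with an unadjusted p under 0.05.

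**Figure D2:**
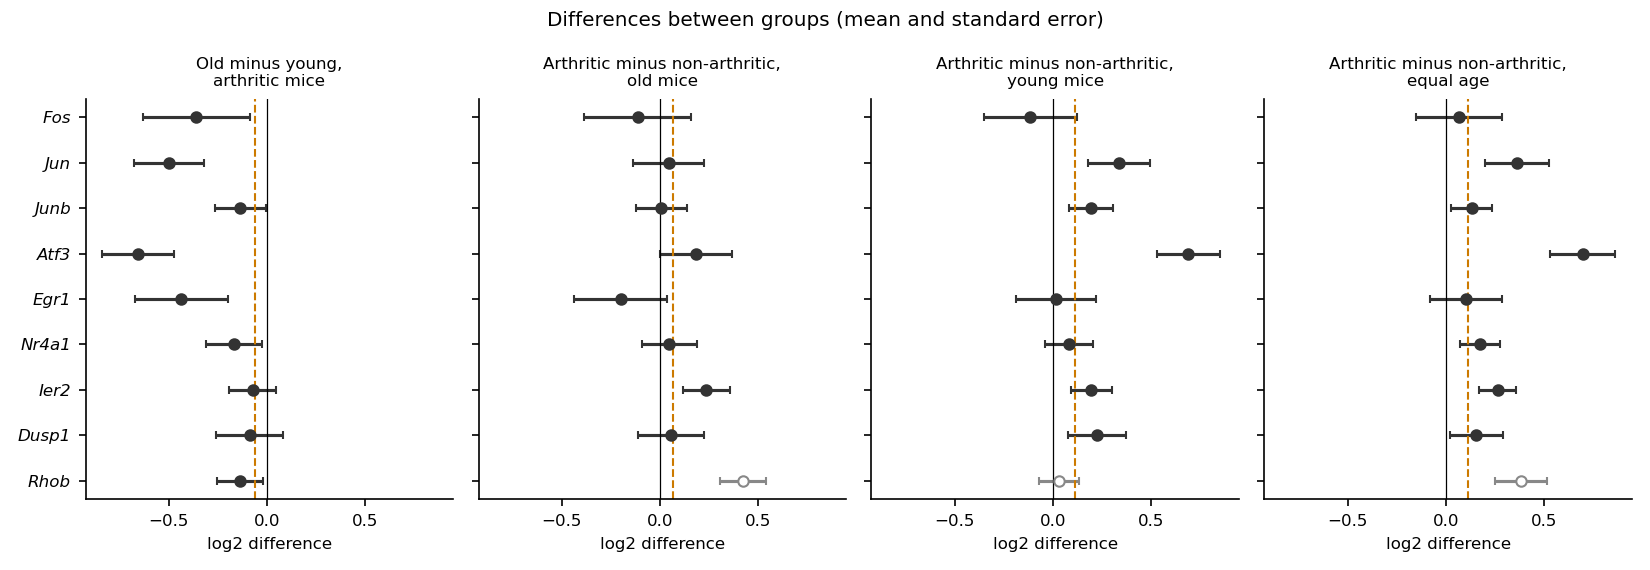
Log2 difference between groups (x axis) for each tested member (y axis) in 4 comparisons, with points at the estimate and bars of 1 standard error from limma. Open grey points are Rhob values that share arrays with the comparison that chose it, and dashed lines mark the median of all named genes. All points lie left of 0 in old against young arthritic mice, and Atf3 lies farthest right in young mice (0.69) and at equal age (0.70).

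The immediate early genes varied from mouse to mouse within a group more than most genes did. The median residual standard deviation of the 8 was 0.19, beside 0.12 for all named genes tested. Fos (0.32), Egr1 (0.27), Atf3 (0.21) and Jun (0.20) were the most variable, and Ier2 (0.11), at percentile 44.9, the least.

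The variation was shared between genes and followed single arrays as well as groups. Young arthritic replicate 1 had all 8 genes above their own mean over the 10 arrays, by 0.33 on average, and held the highest value of 4 of them. Old non-arthritic replicate 1 had none above, at -0.29 on average, and held the lowest value of 5. Old non-arthritic replicate 2, of the same group, stood at 0.04, which is the middle of the range. Young non-arthritic mice ran from -0.09 to 0.16, young arthritic replicate 2 stood at 0.09, and old arthritic mice stood at -0.19 and 0.00.

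Over the 10 arrays, 35 of the 36 pairs among the 8 genes and Rhob correlated positively, with a median Pearson r of 0.536. The highest was Egr1 with Nr4a1 (0.794) and the lowest Egr1 with Dusp1 (-0.118). Jun followed the mean of the other immediate early genes most closely (r = 0.919), ahead of Junb (0.789), Nr4a1 (0.761), Fos (0.673) and Atf3 (0.638), and Dusp1 least (0.450). These correlations describe 10 arrays that share groups, ages and 1 normalization, and they carry no test. The share of positive pairs among all tested genes was not computed, so the count cannot be called particular to these genes.

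**Figure D3:**
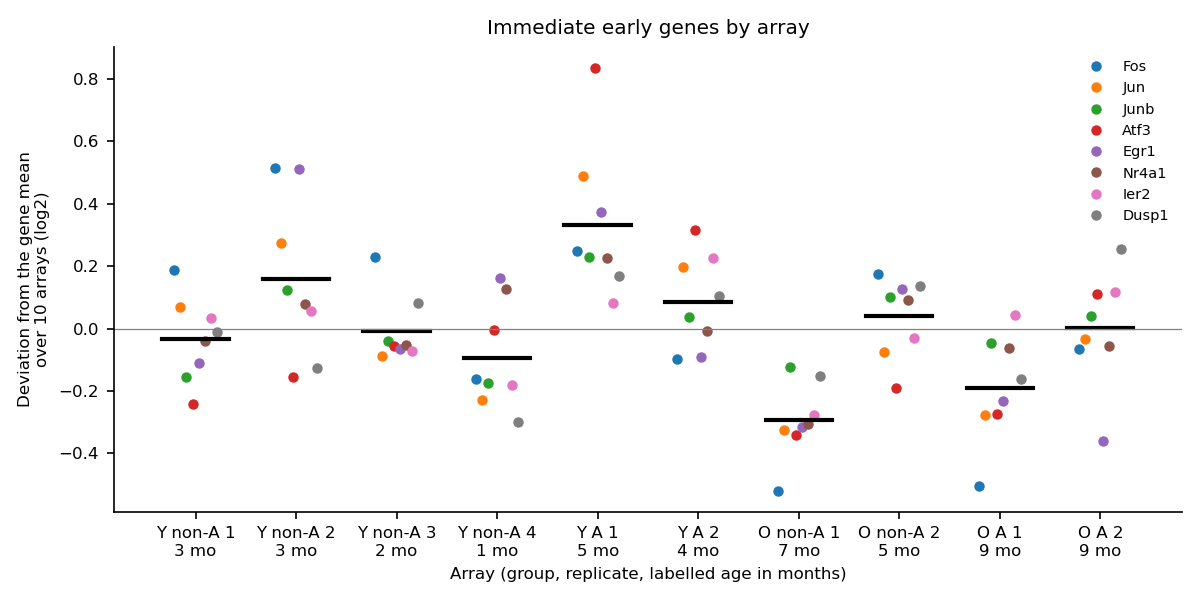
Deviation of each of the 8 immediate early genes tested from its own mean over the 10 arrays (y axis, log2) on each array (x axis, with labelled age in months). Coloured points are genes and black bars the mean of the 8, which is highest in young arthritic replicate 1 (0.33) and lowest in old non-arthritic replicate 1 (-0.29), while old non-arthritic replicate 2 stands at 0.04.

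Among named genes that are no members, Ago1 (r = 0.961, Spearman correlation 0.903), Hspa2 (0.941, 0.879), Nf2 (0.922, 0.952), Gnas (0.920, 0.976) and Mark4 (0.919, 0.794) followed the mean of the immediate early genes most closely over the 10 arrays. They are named by rank alone, out of 11870 named genes tested.

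Rhob was read at 11.16 and 11.37 in old arthritic mice, 10.80 and 10.89 in old non-arthritic mice, 11.30 and 11.51 in young arthritic mice, and 11.39, 11.48, 11.29 and 11.33 in young non-arthritic mice. The old non-arthritic arrays were the 2 lowest, and no other group reached down to them. The order of the group means was young arthritic (11.40 ± 0.15, SD, n = 2), young non-arthritic (11.37 ± 0.08, n = 4), old arthritic (11.27 ± 0.15, n = 2) and old non-arthritic (10.84 ± 0.06, n = 2). The ranges of the groups other than old non-arthritic overlapped one another. Old non-arthritic replicate 2 and young arthritic replicate 1 were both labelled 5 months old and were read at 10.89 and 11.30.

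In the comparison that chose it, Rhob differed by -0.53 (standard error 0.10), or 0.692 of the young non-arthritic level. There 0% of tested probe sets passed in limma, and 759 (3.19%) had an unadjusted p under 0.05. Rhob was the 1 member of 9 whose old and young non-arthritic arrays were wholly apart, and 7.77% of tested probe sets lay wholly lower in the old. For the immediate early genes the estimates ran from -0.36 for Fos to 0.08 for Dusp1, 6 of 8 below 0, with a median of -0.14 beside -0.03 for all named genes. Without old non-arthritic replicate 1 only 3 of 8 were below 0 and the median was 0.00, and without old non-arthritic replicate 2 all 8 were (median -0.28).

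Old against young arthritic mice share no array with that comparison. There Rhob differed by -0.14 (standard error 0.12, 95% interval -0.40 to 0.13, adjusted p = 0.649 in limma), and its arrays overlapped. Leaving out 1 array moved this between -0.25 (without young arthritic replicate 1) and -0.03 (without young arthritic replicate 2 or old arthritic replicate 1). The -0.53 in non-arthritic mice is the value that chose Rhob, so whether the age difference itself differs between arthritic and non-arthritic mice was not tested. The remaining Rhob differences use the non-arthritic arrays too and are values only. Old arthritic mice stood 0.42 (standard error 0.12) above old non-arthritic mice. In young mice the difference was 0.03 (standard error 0.10), and -0.12 when the arrays were quantile normalized once more. At equal age it was 0.38 (standard error 0.13), and the slope was -0.07 per month (0.02).

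Rhob did not share the split between the old non-arthritic mice that the immediate early genes showed. Old non-arthritic replicate 2 stood at 10.89 in Rhob but had a mean immediate early gene deviation of 0.04. Over the 10 arrays Rhob correlated with the mean of the immediate early genes at r = 0.527. The named genes closest to Rhob were Prmt9 (r = 0.929, Spearman correlation 0.733), Trim45 (0.926, 0.879), Ctns (0.922, 0.903), Slc27a4 (0.916, 0.806) and Akap17b (0.910, 0.721), chosen by rank and without a test.

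The mean of the neutrophil markers, though not every marker, was lowest in the same mice as Rhob. The mean signal of the 11 markers tested of 12 was 11.57 to 11.74 in old non-arthritic mice, 11.89 to 12.60 in young non-arthritic mice, 12.37 to 13.01 in young arthritic mice and 12.40 to 12.82 in old arthritic mice. Of the 11 markers, 9 were lower in old than in young non-arthritic mice, with a median of -0.75, and none passed in limma (8 at an unadjusted p under 0.05). The exceptions were the receptors Cxcr2 and Csf3r. Cxcr2 was read at 9.66 and 9.54 in old and 9.44 to 9.83 in young non-arthritic mice. Csf3r was read at 10.52 and 10.71 in old and 10.25 to 10.56 in young non-arthritic mice. Megakaryocyte and platelet markers (5 of 6 tested) were highest in young arthritic mice (12.53 to 12.82), lay at 12.12 to 12.25 in old arthritic and 11.96 to 12.51 in young non-arthritic mice, and were lowest in old non-arthritic mice (11.85 in both). All 5 had lower means in old than in young non-arthritic mice, with a median of -0.37, 3 of them at an unadjusted p under 0.05 and none past the threshold in limma. The old non-arthritic mice were thus the lowest group in Rhob and in the means of both marker lists. In Atf3 both young arthritic mice (9.14 and 8.62) lay above all others, the next being 8.42. In the mean of the megakaryocyte and platelet markers they did so narrowly, at 12.53 or more against 12.51 in young non-arthritic replicate 3. In Itga2b (11.80) and Gp1bb (12.02), young arthritic replicate 1 lay below young non-arthritic replicate 3 (11.87 and 12.03). In the neutrophil markers young arthritic replicate 1 (12.37) lay below both old arthritic mice. Of the young arthritic mice, replicate 1 was the higher in Atf3 (9.14 against 8.62) and replicate 2 in both marker lists. The part of either cell type in these results was not tested.

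**Figure D4:**
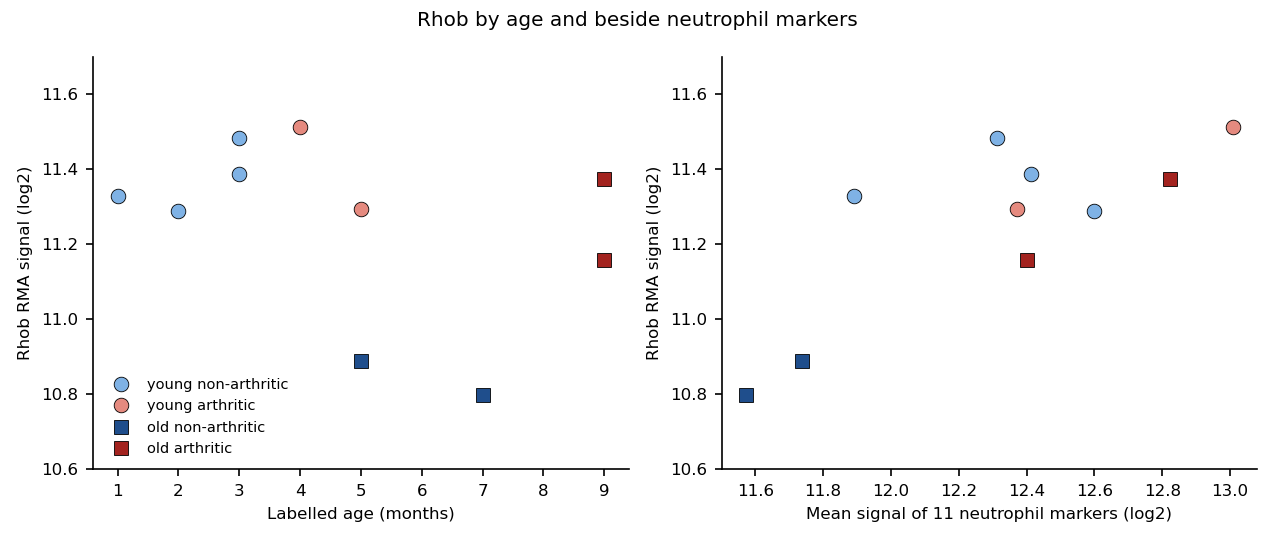
Log2 RMA signal of Rhob (y axes) on each array against labelled age in months (left x axis) and against the mean log2 signal of 11 neutrophil markers (right x axis). Points are mice, coloured by group, and both old non-arthritic mice lie at the bottom of both panels (Rhob 10.80 and 10.89, neutrophil markers 11.57 and 11.74).

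The wider pathways were read from lists of genes with related roles. In old against young arthritic mice no list gene passed the threshold. All 13 genes of the MAP kinase phosphatase and feedback list had lower means in old mice, with a median of -0.20. That list holds Dusp, Spry and Spred family members and also the stress sensors Gadd45a, Gadd45b and Gadd45g. Of 27 other immediate early and early response genes tested (of 28), 23 were lower (median -0.17), 7 of them at an unadjusted p under 0.05. The 14 AP-1, ATF and Maf partners tested had a median of -0.08 and the 13 heat shock genes 0.04, beside -0.06 for all named genes. With the arrays quantile normalized once more, 12 of the 13 genes of that list and 19 of the 27 early response genes were lower.

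At equal age 2 genes of the pathway lists described here passed, both higher in arthritic mice. Gadd45g, a stress sensor that binds the p38 and JNK pathway kinase MEKK4, was read at 8.29 and 8.18 in old arthritic, 7.72 and 7.77 in old non-arthritic, 8.27 and 8.36 in young arthritic, and 7.97, 7.98, 7.91 and 7.79 in young non-arthritic mice. Its difference was 0.49 (standard error 0.08, adjusted p = 0.0247), and no arthritic array overlapped a non-arthritic one. Tnf, the inflammatory cytokine and itself an early response gene, differed by 0.43 (standard error 0.09, adjusted p = 0.0461), with arthritic mice at 7.88 to 8.14 and non-arthritic mice at 7.51 to 7.75.

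Gadd45g and Tnf each missed the threshold when some single array was left out, with adjusted p up to 0.186 and 0.254.

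List medians at equal age ran from 0.04 to 0.18, beside 0.11 for all named genes. The median was 0.15 for the 27 other immediate early genes (25 positive). For the 13 genes of the MAP kinase phosphatase and feedback list, Gadd45g included, it was 0.18 (11 positive). The median was 0.11 for the 17 upstream kinases and serum response factor cofactors tested of 21. It was 0.06 for the AP-1 partners, 0.04 for the 13 NF-kB feedback and cytokine genes tested of 16 and 0.06 for the heat shock genes. After quantile normalizing once more, positive members numbered 15 of 27 early response genes and 9 of 13 genes of the MAP kinase phosphatase and feedback list. The medians of the AP-1 (-0.08), NF-kB (-0.08) and heat shock (-0.10) lists were then below 0. Near the threshold lay Plk2, a kinase of the early response (0.43, adjusted p = 0.0521), and Sgk1, a serum-induced kinase (0.30, adjusted p = 0.0727). Atf7, an ATF family repressor, stood at -0.29 (adjusted p = 0.103), Maf at 0.29 (0.204), Mapkapk2, the kinase downstream of p38, at 0.33 (0.102) and Mrtfa, a serum response factor cofactor, at 0.29 (0.128). The heat shock genes with the smallest p were Hspd1, a mitochondrial chaperone, and Bag3, a partner of HSP70, both at 0.15 (adjusted p = 0.302 and 0.479).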

How the data were processed

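Spleen RNA of 10 mice was hybridized to Affymetrix arrays. The deposited table gives 1 log2 value for each probe set and array, which the authors obtained with RMA (background correction, quantile normalization and probe summary), as named in the submitters' processing notes without a version. Of 45101 rows, 64 controls were left out. Gene symbols came from the annotation of the platform, which gives 34945 probe sets 1 symbol, 932 several and 9160 none. Groups and ages came from the sample labels. The study's text states no test for the arrays.

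Probe sets over the array median on at least 2 arrays were kept. Where a gene had several kept probe sets, the brightest represented it. Linear models (limma 3.58.1, R 4.3.3; lmFit and eBayes) over all 23805 kept probe sets used group means (6 residual degrees of freedom) or age in months and arthritis status (7), with Benjamini-Hochberg adjustment over all of them and a threshold of 0.05. The number of arrays limits the precision, and the tests rest on the spread among these mice alone. The code was tested on simulated data. Some gene lists tried are not reported here. Named genes were all members, list genes past the threshold (otherwise the 2 with the smallest p of a list at equal age, those of the cell type lists not printed) and the 5 most like in pattern. The members and lists were chosen with earlier results of these data known. Replicate numbers of different groups belong to different mice and were not treated as pairs. Deviations of same-numbered arrays correlated from -0.525 to 0.356. In groups of 2 mice the deviations mirror each other, so these values cannot show whether same-numbered arrays share a batch. Alternatives were no filter or a stricter one, other normalizations, other variance estimates, weights for arrays, a replicate block, other handling of several probe sets, only the groups compared and leaving out each array. Motifs were searched on both strands in 250 bases upstream of RefSeq starts; the CArG box was searched by its consensus. Figures were drawn with matplotlib 3.10.9.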

Additional observations from a re-analysis of the deposited data

Results flagged for a closer look

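Among the 11 member probe sets, 1 held a young non-arthritic mouse far from the other 3. Fosb in young non-arthritic replicate 4 was read at 4.73, against 4.86 to 4.88 in the other mice of its group, and its gap to them was 0.915 of the group's range. Chance alone would place about 5% of such groups past the limit used, and Fosb lay below the median of every array, so its level above background is not shown.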

How the results depend on the processing

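No immediate early gene passed the threshold in old against young arthritic mice, arthritis in old mice, the difference of the arthritis effects or the slope per month under any alternative. In young mice, 1 gene (Atf3, adjusted p = 0.0297) passed when no filter on dim probe sets was used, where its adjusted p ran from 0.0297 to 0.355 over the alternatives that kept all arrays. At equal age, 1 gene passed without the filter (Atf3, adjusted p = 0.0206), 1 with probe sets averaged per gene (Atf3, 0.0447) and 3 with array weights (Atf3, 0.0105; Ier2, 0.0363; Jun, 0.0418). Leaving out each array in turn gave 0 to 1 genes at equal age and 0 in the other comparisons. The highest adjusted p of Atf3 at equal age was 0.126 with all arrays and 0.208 with 1 left out. The number of tested probe sets past the threshold, beside 538 at equal age, was 5475 without the filter, 256 with the stricter one, 4857 with array weights and 29 with the replicate block. In old mice it was 2280 and in young mice 3186 without the filter, beside 17 and 74. Leaving out 1 array gave 0 (without old non-arthritic replicate 1) to 872 (without young non-arthritic replicate 4) at equal age, and also 26 when old non-arthritic replicate 2 was dropped, and 17 and 2 when young arthritic replicates 1 and 2 were. In the comparisons of group means, leaving out 1 array of a group of 2 left that group with 1 mouse. The number of tested probe sets past the threshold is not given for those fits. In old mice the median of all named genes was 0.12 without old arthritic replicate 1 and 0.03 without old arthritic replicate 2. In old against young arthritic mice it was -0.01 and -0.10. With the replicate number in the model (replicate block), 0 members passed in any comparison. Rhob in the comparison that chose it ran from -0.59 to -0.48. Of the 8 genes, 7 to 8 had lower means in old against young arthritic mice and 3 to 8 in old against young non-arthritic mice. Higher means in arthritic mice were found for 2 to 8 genes in old mice and 5 to 8 in young mice. At equal age 6 to 8 had positive differences. Groups of 2 mice limit what can be called, and Fosb was too dim to read.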

Other observations

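Hspa1b and Hsph1, of 13 genes listed for the heat shock and stress response, followed another order than the immediate early genes. Both were picked out after their values were seen, so the differences carry no test. Hspa1b, the inducible HSP70, was read at 9.95, 10.34, 9.70 and 8.76 in young non-arthritic mice and from 8.23 to 8.93 in the other 6 mice. Its difference between old and young non-arthritic mice was -1.16. Hsph1, an HSP110 chaperone that works with HSP70, was read at 11.33, 11.53, 10.96 and 10.51 in young non-arthritic mice and from 10.28 to 10.62 in the others, with a difference of -0.74. Young non-arthritic replicates 1 to 3 were thus the 3 highest arrays for both chaperones, while young arthritic replicate 1, highest for the immediate early genes, was not among them. The same 3 arrays were highest for Hspa1a (7.35, 8.44 and 7.35), but young arthritic replicate 1 lay close below at 7.32. Young non-arthritic replicates 1 and 2 were the highest for Hspa8 (14.21 and 14.19) and Hsp90aa1 (13.31 and 13.26). Some other genes of the list had other orders. Hspd1, Ddit3 and Ddit4 were highest in old arthritic replicate 2, and Hmox1 in old non-arthritic replicate 1.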
